A study of Rattus norvegicus with 8 samples.

Results

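The 9 genes described here encode the AMPA and kainate classes of ionotropic glutamate receptor: Gria1, Gria2, Gria3 and Gria4 for AMPA receptors and Grik1, Grik2, Grik3, Grik4 and Grik5 for kainate receptors. They were taken from the count table by gene symbol, as protein-coding rows, so 9 of 34298 genes in all. Each symbol named 1 row, and all 9 were among the 16573 genes that passed the filter on low counts. RNA came from the orbitofrontal cortex of adult male Sprague-Dawley rats, which were 8 weeks old on arrival. Each animal received 1 µl of an siRNA complex in the transfection reagent JetPEI, holding 5 ng of siRNA, and tissue was taken 7 days later. In 4 animals (scrambled replicates 1, 3, 4 and 5) the siRNA was a scrambled control. In the other 4 (circNrxn3 replicates 1 to 4) it targeted circNrxn3, which is a circle spliced from transcripts of the neurexin 3 gene. The labels do not say what part of the dissected tissue took up the siRNA, and in bulk tissue fewer cells of a type and less RNA per cell cannot be told apart.

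AMPA receptors are ion channels opened by glutamate, assembled from subunits in mixed combinations, and they carry most of the fast excitatory current in cortex. The GluA2 subunit, from Gria2, makes the channel largely impermeable to calcium once its transcript has been edited. Kainate receptors are built on the same plan. Their subunits GluK1 to GluK3 (Grik1, Grik2 and Grik3) can form channels alone, whereas the high-affinity subunits GluK4 and GluK5 (Grik4 and Grik5) need a partner from the first set. Neurexins are presynaptic adhesion proteins that help align release sites with glutamate receptors across the synapse.

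The libraries held 27589883 to 35221782 counts each. Excitatory neuron markers were abundant, with Slc17a7, a cortical vesicular glutamate transporter, at 2254 ± 252 CPM (counts scaled to library size) in scrambled and 2066 ± 231 CPM in circNrxn3 libraries (SD, n = 4 each). Of 6 markers of striatal neurons, from a neighbouring region, the dopamine receptor genes Drd1 and Drd2 averaged 1.77 and 4.67 CPM in scrambled libraries, while Ppp1r1b and Penk averaged 229.7 and 167 CPM. These markers were uneven between libraries. In scrambled and circNrxn3 replicate 3, Drd2 was at 9.3 and 6.4 CPM, against 2.7 to 4.7 CPM in the other libraries. Rgs9 was at 12.8 and 11.5 CPM there, against 2.7 to 5.7, and Ppp1r1b at 299 and 269 CPM, against 176 to 221. Adora2a was also highest in replicate 3 of each group, whereas Drd1 and Penk were not. Linear Nrxn3 mRNA, which does not measure the circle, was scarce, at 7.75 ± 3.77 CPM in scrambled and 8.86 ± 4.30 CPM in circNrxn3 libraries (log2 fold change 0.20, edgeR adjusted p = 0.948). The poly-T selected libraries do not measure a circle without a tail, so the knockdown itself was not checked here. Libraries also differed in the balance between long and short gene models. This long-gene balance is the median log2 CPM of models over 3486 bp minus that of models under 1372 bp, each gene taken relative to its mean over the 8 libraries. It was 0.07, −0.16, −0.19 and −0.03 in scrambled replicates 1, 3, 4 and 5 and 0.15, 0.20, −0.07 and 0.01 in circNrxn3 replicates 1 to 4.

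Before the values, the DNA just upstream of 3 of the genes is given, because these genes had the largest difference between the groups (Grik5), the widest spread between animals (Grik3) and an AMPA subunit pattern opposite to that of Grik5 (Gria4). Each line is the 250 bases before the gene start in RefSeq (build GRCr8), 5′ to 3′ on the gene's strand. They lie at chr1:89794910-89795159 on the minus strand, chr5:143052192-143052441 on the plus strand and chr8:10319882-10320131 on the minus strand. Capitals mark the GC box letters GGGCGG on either strand.
Grik5: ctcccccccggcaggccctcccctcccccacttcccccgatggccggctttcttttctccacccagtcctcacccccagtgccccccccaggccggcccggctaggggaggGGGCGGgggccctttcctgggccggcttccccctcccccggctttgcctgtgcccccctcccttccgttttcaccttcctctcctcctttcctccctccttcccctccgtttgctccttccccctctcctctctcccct
Grik3: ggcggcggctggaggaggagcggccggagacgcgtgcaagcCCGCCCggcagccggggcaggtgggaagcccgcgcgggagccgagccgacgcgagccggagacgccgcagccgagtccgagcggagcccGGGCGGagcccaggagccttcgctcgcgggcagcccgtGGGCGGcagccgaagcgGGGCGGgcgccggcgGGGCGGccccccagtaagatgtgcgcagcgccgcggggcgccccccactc
Gria4: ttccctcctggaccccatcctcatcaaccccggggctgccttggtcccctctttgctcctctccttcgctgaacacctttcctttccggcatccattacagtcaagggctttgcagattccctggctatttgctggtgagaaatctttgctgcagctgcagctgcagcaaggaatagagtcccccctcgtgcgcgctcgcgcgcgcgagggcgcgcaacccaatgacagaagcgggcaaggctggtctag

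The RefSeq table held 6 of the 9 genes, and Gria1, Gria2 and Gria3 had no entry. In the Grik5 window 70.8% of bases were G or C, with 1 GC box, and in the Grik3 window 81.6%, with 5. The Gria4 window held 59.6% G or C and 0 GC boxes, as did those of Grik1 (57.6%), Grik2 (49.6%) and Grik4 (43.2%), against a median of 51.2% over 33469 windows of the same length. GGGCGG was present in 30.5% of all those windows. The TATA box letters TATAAA, the NRF-1 site core GCGCATGC and the cAMP response element TGACGTCA, searched on both strands, were present in 12.9%, 2.20% and 1.59% of windows and in 0 of these 6. These letter matches are descriptions, not sites of binding.

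Per length, in the deposited FPKM (fragments scaled to gene model length and library size), Grik5 stood highest at 126 ± 22.1 FPKM (SD, n = 8 libraries), above Gria2 at 56.5 ± 9.36 and Gria3 at 49.7 ± 5.47. Gria4 followed at 13.1 ± 2.07 FPKM and Gria1 at 8.72 ± 1.03. Of the remaining kainate subunits, Grik4 was at 7.93 ± 1.3, Grik2 at 6.28 ± 0.326, Grik1 at 3.68 ± 0.441 and Grik3 at 1.38 ± 0.644 FPKM. Each gene exceeded the next in this order in 8 of 8 libraries, apart from Gria1 and Grik4, where Gria1 was the higher in 5 of 8. The levels are per base of the models used for counting, which span 2976 bp for Gria1, 6854 bp for Gria2 and 3757 bp for Grik5. Whether these models cover the whole transcripts was not tested, and reads outside them were not counted.

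None of the 9 genes passed the test between the siRNA groups. The quasi-likelihood test of edgeR (Benjamini-Hochberg adjusted p under 0.05) called 0 of the 9 and 0% of all 16573 genes tested. DESeq2 called 0 of the 9 and 0.073% of all genes (11 of 15067), and limma-voom 0 of the 9 and 0% of all. At an unadjusted p under 0.05 there was 1 of the 9, Grik5, beside 5.59% of all genes (926). The CPM of the groups did not overlap in 0 of the 9 genes, against 3.48% of all genes (576). All 4 AMPA subunits had a log2 fold change above 0, as did 51.3% of all genes tested, and 2 of the 5 kainate subunits did. Their medians were 0.19 and −0.03, beside 0.0066 over all genes.

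**Figure D1:**
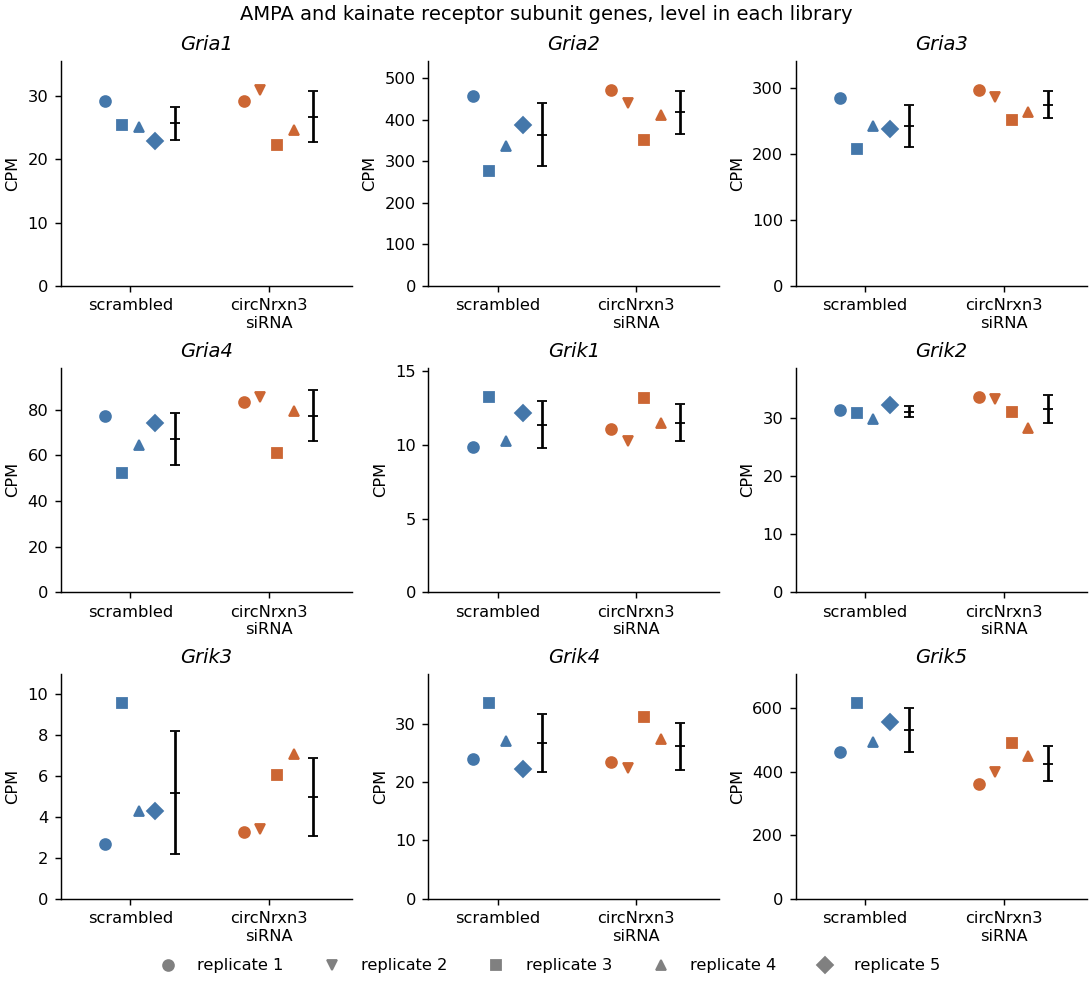
Level of each subunit gene (y axis, TMM-scaled CPM, from 0) in each library, with the replicate number as the symbol and the mean ± SD of 4 libraries in black. Grik5 is the gene whose groups lie furthest apart, at 531 and 425 CPM, and replicate 3 of both groups sits low for Gria4 and high for Grik4.

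Among the AMPA subunits, Gria2 (ENSRNOG00000054204, chromosome 2, 179584308 to 179704629, minus strand, build rn6 here and below) reached 457, 277, 336 and 386 CPM in scrambled replicates 1, 3, 4 and 5. It was at 470.2, 439.7, 349.7 and 411 CPM in circNrxn3 replicates 1 to 4. Scrambled replicates 3 and 4 were the lowest of the 8, and the groups overlapped, since scrambled replicate 1 exceeded all but circNrxn3 replicate 1. The group means were 364 ± 76.5 and 418 ± 51.3 CPM (SD, n = 4 each). On the log2 scale the difference was 0.20, with a 95% interval of −0.13 to 0.53 (edgeR adjusted p = 0.84).

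Gria3 (ENSRNOG00000007682, chromosome X, 127562660 to 127829753, plus strand) encodes GluA3, a common partner of GluA2. It was at 284, 207, 241 and 237 CPM in the scrambled libraries and at 296, 286, 251 and 263 CPM in the circNrxn3 libraries, in the same replicate order. Only scrambled replicate 1 among the controls lay within the circNrxn3 range. The log2 fold change was 0.18 (95% interval −0.04 to 0.40, edgeR adjusted p = 0.833).

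Gria4 (ENSRNOG00000006957, chromosome 8, 1548146 to 2045817, minus strand) encodes GluA4, known in cortex mainly from fast-spiking interneurons. Its values were 77.2, 52.3, 64.6 and 74.3 CPM in the scrambled libraries, and 83.3, 85.6, 61.0 and 79.3 CPM in the circNrxn3 libraries. Replicate 3 was the lowest in each group. The log2 fold change was 0.20 (95% interval −0.11 to 0.52, edgeR adjusted p = 0.834). Summed CPM of the 7 interneuron markers, which include Gad1 and Pvalb, ran from 1104 to 1341 in scrambled and from 1083 to 1269 in circNrxn3 libraries. Sst was the largest part of that sum, at means of 525 and 485 CPM. Pvalb alone was at 141, 124, 187 and 188 CPM in the scrambled and 160, 144, 161 and 186 CPM in the circNrxn3 libraries.

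Gria1 (ENSRNOG00000045816, chromosome 10, 42614713 to 42760200, plus strand), whose product GluA1 is the subunit best known for insertion during long-term potentiation, differed least of the AMPA genes. It was at 29.3, 25.4, 25.1 and 22.8 CPM in the scrambled and 29.2, 30.9, 22.2 and 24.6 CPM in the circNrxn3 libraries. The lowest and the highest of the 8 values were both in the circNrxn3 group. The log2 fold change was 0.06 (95% interval −0.21 to 0.33, edgeR adjusted p = 0.939).

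Of the kainate subunits that can form channels alone, Grik2 (GluK2; ENSRNOG00000000368, chromosome 20, 53789760 to 54517709, minus strand) was the steadiest of all 9 genes, with a coefficient of variation of 5.53% over the 8 libraries. It was at 31.3, 30.8, 29.8 and 32.2 CPM in the scrambled and 33.6, 33.2, 31.0 and 28.3 CPM in the circNrxn3 libraries. Its log2 fold change of 0.02 had the narrowest interval, −0.15 to 0.20 (edgeR adjusted p = 0.966).

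Grik1 (GluK1; ENSRNOG00000001575, chromosome 11, 27811957 to 27971359, minus strand), known in cortex from interneurons, rested on 275 to 445 counts per library. Its level was 9.84, 13.3, 10.3 and 12.2 CPM in the scrambled libraries and 11.1, 10.2, 13.2 and 11.5 CPM in the circNrxn3 libraries. The 2 highest values were those of replicate 3 in each group. The log2 fold change was 0.01 (95% interval −0.30 to 0.33, edgeR adjusted p = 0.99).

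Grik3 (GluK3; ENSRNOG00000008992, chromosome 5, 143500441 to 143715546, plus strand) varied most, with a coefficient of variation of 46.0% and a 3.60-fold range. It rested on only 74 to 320 counts per library. Its level was 2.65, 9.54, 4.26 and 4.28 CPM in the scrambled and 3.27, 3.43, 6.05 and 7.06 CPM in the circNrxn3 libraries. Scrambled replicate 3 stood above and scrambled replicate 1 below every other library. A log2 fold change of −0.07 therefore had a wide interval, from −0.97 to 0.83 (edgeR adjusted p = 0.982), and without scrambled replicate 3 it was 0.40.

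Of the high-affinity subunits, Grik5 (GluK5; ENSRNOG00000020310, chromosome 1, 81885521 to 81946714, minus strand) reached 461, 615, 492 and 555 CPM in scrambled replicates 1, 3, 4 and 5. It was at 361, 399.8, 488 and 449 CPM in circNrxn3 replicates 1 to 4. The 3 highest of the 8 values were scrambled, and the groups overlapped through scrambled replicate 1, which lay below circNrxn3 replicate 3. The means were 531 ± 68.4 and 425 ± 55.7 CPM (SD, n = 4 each). The log2 difference was −0.32 (standard error 0.12, 95% interval −0.58 to −0.06), which is 0.800 times the scrambled level. It did not pass (edgeR adjusted p = 0.833), and its p ranked 332 among the 16573 genes.

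Grik4 (GluK4; ENSRNOG00000030910, chromosome 8, 46806147 to 47094352, minus strand), the other high-affinity subunit, was at 23.9, 33.5, 27.0 and 22.2 CPM in the scrambled libraries. In the circNrxn3 libraries it was at 23.4, 22.4, 31.2 and 27.4 CPM. As with Grik1, replicate 3 of each group was high. The log2 fold change was −0.03 (95% interval −0.36 to 0.30, edgeR adjusted p = 0.979). No other gene model that overlaps any of the 9 or lies within 1000 bp averaged more than 0.461 CPM.

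**Figure D2:**
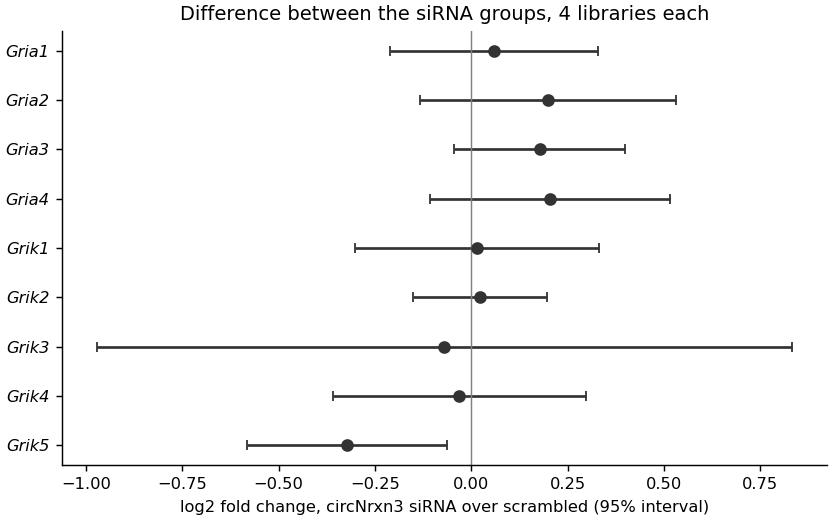
Log2 fold change (x axis, circNrxn3 siRNA over scrambled siRNA, 4 libraries each) of the 9 genes, with 95% intervals from the edgeR fit that are not adjusted for the number of genes. The interval of Grik5, −0.58 to −0.06, is the one that lies on 1 side of 0, and that of Grik3 is the widest.

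Subunit make-up was described as the share of each gene in the summed FPKM of its family, with no test. Within the AMPA family Gria2 made up 43.6 ± 2.42% in scrambled and 44.3 ± 1.01% in circNrxn3 libraries (SD, n = 4 each). Gria3 made up 39.0 ± 1.76% and 38.9 ± 1.56%, Gria4 10.1 ± 0.616% and 10.3 ± 0.659%, and Gria1 7.22 ± 1.05% and 6.52 ± 0.421%. The groups overlapped for all 4 AMPA shares. Each AMPA share thus differed by less than its SD in the scrambled libraries, although Gria1 differed by more than its SD in the circNrxn3 libraries. The summed AMPA level ran from 98.8 to 144 FPKM in scrambled and from 117 to 149 FPKM in circNrxn3 libraries.

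In the kainate family the shares of Grik5 did not overlap between the groups. They were 87.5, 87.5, 87.5 and 88.9% in scrambled replicates 1, 3, 4 and 5 and 84.0, 85.7, 85.7 and 85.8% in circNrxn3 replicates 1 to 4. Shares of a family sum to 100, so a lower share of Grik5 leaves more for the rest. Grik1 took 2.27, 2.30, 2.22 and 2.38% in the scrambled and 3.13, 2.67, 2.82 and 2.67% in the circNrxn3 libraries, also without overlap. Grik4 took 5.03 ± 0.666% and 5.97 ± 0.347%, where the highest scrambled value, 5.46%, lay just under the lowest circNrxn3 value, 5.48%. Grik2 (3.95 ± 0.486% and 4.90 ± 0.918%) and Grik3 (0.854 ± 0.383% and 1.01 ± 0.299%) overlapped. The summed level of the kainate genes other than Grik5 was 19.4 ± 2.69 FPKM in scrambled and 19.1 ± 1.76 FPKM in circNrxn3 libraries. Because Grik5 makes up most of the sum, the shares of Grik5, Grik1 and Grik4 are not separate results. In CPM the groups overlapped for each of these genes. Groups did not overlap in CPM in 3.48% of all genes, and no such rate was obtained for shares.

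**Figure D3:**
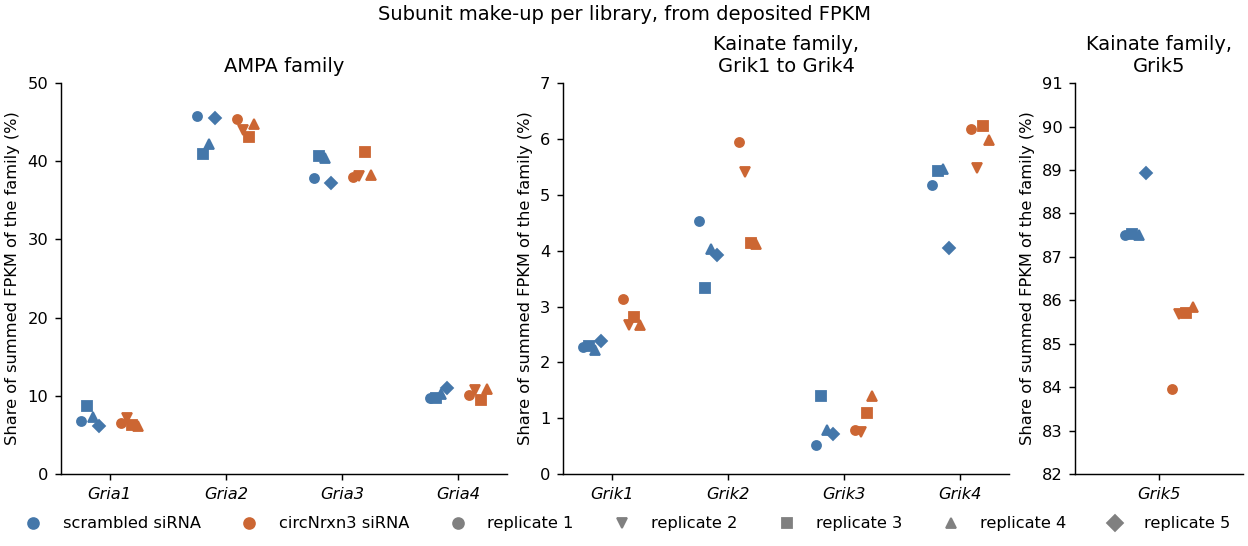
Share of each subunit gene in the summed FPKM of its family (y axis, percent) in each library, coloured by siRNA group, with the replicate number as the symbol. The axis for Grik5 runs from 82 to 91%, where the circNrxn3 libraries lie at 84.0 to 85.8% and the scrambled libraries at 87.5 to 88.9%.

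For 4 of the 9 genes the order of the libraries was related. The 4 libraries lowest for Gria2 were scrambled replicates 3, 4 and 5 and circNrxn3 replicate 3, and these were also the 4 lowest for Gria3 and for Gria4. The same 4 libraries were the 4 highest for Grik5. Gria1, Grik1, Grik2, Grik3 and Grik4 did not share this split. The 4 libraries were the 4 lowest in long-gene balance as well, and 3 of the 4 are scrambled libraries. The ratio of Gria2 to Grik5 FPKM was 0.544, 0.247, 0.374 and 0.381 in the scrambled and 0.714, 0.603, 0.392 and 0.502 in the circNrxn3 libraries, and the groups overlapped. In scrambled replicate 3, where the balance was −0.16, Grik5 and Grik3 were at their highest and Gria2, Gria3 and Gria4 at their lowest, and the models of all 5 count as long. Without that library the log2 fold changes were 0.085 for Gria2, 0.11 for Gria3, 0.097 for Gria4 and −0.25 for Grik5.

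With the balance as a covariate in the edgeR fit, chosen after seeing the data, the log2 fold change of Grik5 was −0.17 (standard error 0.10, adjusted p = 0.866). Those of Gria2 and Gria4 turned to −0.044 and −0.026, and that of Gria3 was 0.04. The mean balance was −0.08 ± 0.12 in scrambled and 0.07 ± 0.13 in circNrxn3 libraries (SD, n = 4 each). Its part in the differences between the groups was not tested beyond this fit.

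**Figure D4:**
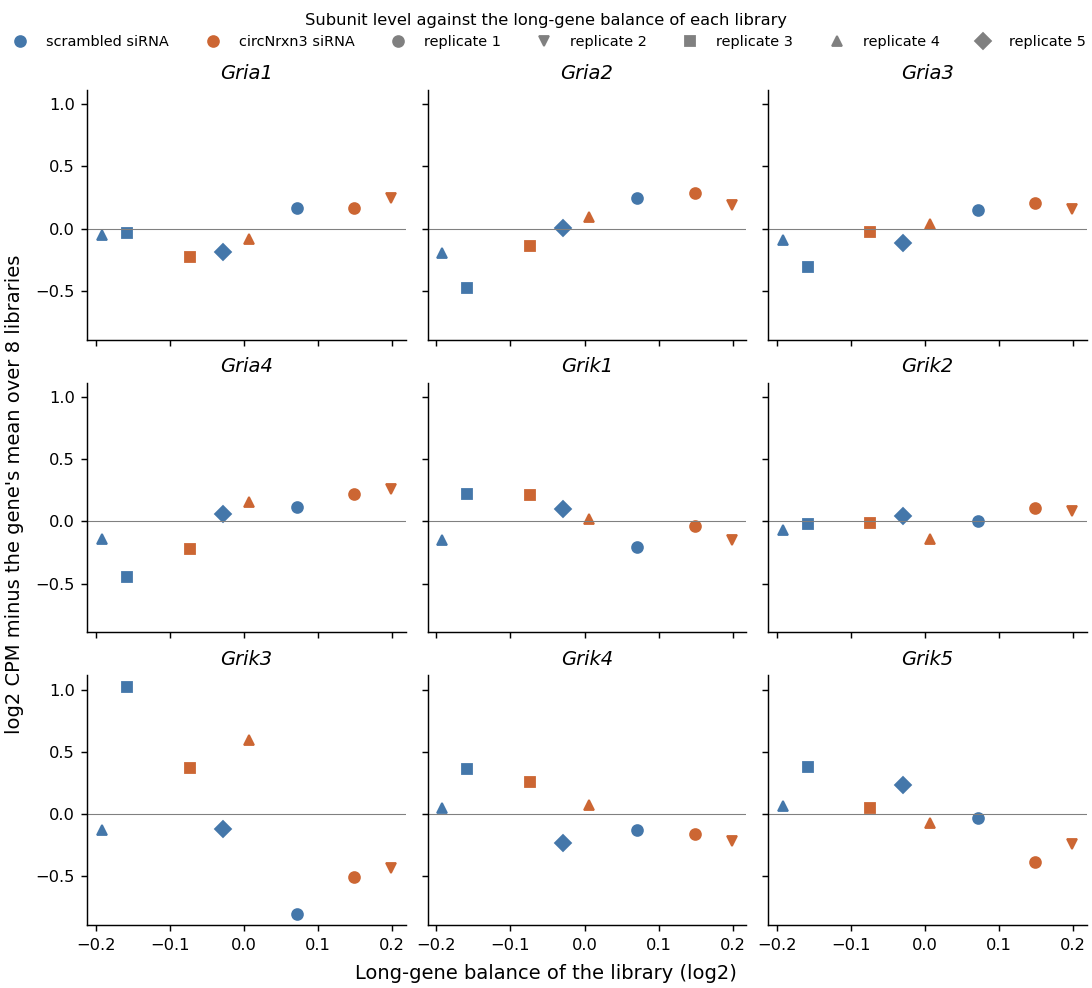
Level of each subunit gene relative to its own mean over the 8 libraries (y axis, log2 CPM) against the long-gene balance of the library (x axis, log2), coloured by siRNA group with the replicate number as the symbol. The 4 libraries with a balance under 0 are the lowest 4 for Gria2, Gria3 and Gria4 and the highest 4 for Grik5, although scrambled replicate 5 lies above the mean of Gria4, and Grik2 varies least, with a coefficient of variation of 5.53%.

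Genes with the most similar pattern over the 8 libraries were looked up for each subunit among 8254 protein-coding genes, by Pearson r of log2 CPM. The r values are a description with no test, since they are the highest of many and all genes share the same libraries. Nearest to Gria2 were Elp3 (r = 0.988) and Far1 (r = 0.988), nearest to Gria3 Tspyl1 (0.984) and Matr3 (0.983), and nearest to Gria4 Tgoln2 (0.994) and Ankrd26 (0.986). Gria1 was most like Ankrd6 (0.971) and Btaf1 (0.968). For Grik5 the nearest were Rhbdl1 (r = 0.993) and Akt1s1 (r = 0.989), whose own log2 fold changes were −0.23 and −0.24. Grik4 was most like Khdrbs3 (0.988) and Pithd1 (0.976), Grik1 like Tmem115 (0.947) and Fdx1 (0.935), Grik2 like Chd6 (0.971) and Sec16a (0.946), and Grik3 like Nckipsd (0.959) and Med29 (0.959). None of these was another glutamate receptor partner from the lists described next.

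Proteins that assemble, carry, anchor or modify these receptors were read from 7 lists, of which 68 gene models were tested. In the edgeR fit 0 of the 68 passed, 38 had a log2 fold change above 0 and 30 below, and at an unadjusted p under 0.05 there were 1 higher and 4 lower, beside 395 higher and 531 lower (5.59%) of all genes. The groups did not overlap in 4 of the 68, beside 3.48% of all genes. AMPA receptor auxiliary subunits travel with the channel and set its gating, and 5 of 13 tested were above 0 and 8 below, with a median of −0.09. The 3 with an unadjusted p under 0.05 were all at lower values in circNrxn3 libraries. Cacng4, the TARP gamma-4, was at 64.5, 85.2, 66.3 and 79.7 CPM in the scrambled and 50.9, 58.7, 61.9 and 59.8 CPM in the circNrxn3 libraries, without overlap. Its log2 fold change was −0.36 (standard error 0.11, edgeR adjusted p = 0.833). Prrt1, which encodes SynDIG4, likewise had no overlap, at 393 to 426 CPM against 332 to 375 CPM, a log2 fold change of −0.22. Nor did Cacng3, the TARP gamma-3, at 195 to 214 CPM against 173 to 193 CPM (log2 fold change −0.13), named outside the rule after its values were seen. Cnih2, a cornichon that promotes export of AMPA receptors, was at 541 ± 59.3 and 441 ± 44.5 CPM (SD, n = 4 each) with overlap, and had −0.29.

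Neto1 and Neto2, the auxiliary subunits of kainate receptors, had log2 fold changes of 0.13 and 0.36 with standard errors of 0.12 and 0.32. Assembly factors of the endoplasmic reticulum had a median of −0.01 over 6 genes, and the 3 with the smallest p were Sacm1l (0.19), Porcn (−0.12) and Abhd12 (−0.04). Trafficking and anchoring genes had a median of 0.03, with 12 of 22 above 0. Dlg4, the scaffold PSD-95, was at 1260 to 1382 CPM in scrambled and at 942 to 1167 CPM in circNrxn3 libraries, without overlap (log2 fold change −0.26, standard error 0.09, edgeR adjusted p = 0.833). Olfm3 (0.39) and the neuronal pentraxin Nptx1 (0.23), which clusters AMPA receptors, had overlapping groups.

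Of 8 tested genes for interaction and modification of kainate receptors 4 were above 0. Klhl17, an actin-linked binding partner of GluK2, had 0.22, the secreted C1ql3 −0.27 and Actr3b −0.09. RNA editing genes had a median of 0.12 over 6 genes, where Fmr1 had 0.17, the editing enzyme Adar 0.35 and the scarce Adarb2 −0.71. Adarb1, named outside the rule because it edits the Gria2 transcript, was at 89.0 ± 13.9 and 93.5 ± 9.75 CPM (SD, n = 4 each). Kinases and phosphatases that act on AMPA receptor tails had a median of 0.03, with 8 of 11 above 0. The calcineurin subunit genes Ppp3cb and Ppp3ca had 0.38 and 0.27, and the phosphatase gene Ppp1ca −0.11. Of these 11, Ppp3cb was the 1 with an unadjusted p under 0.05, and its groups, at 163 ± 33.5 and 212 ± 38.0 CPM (SD, n = 4 each), overlapped (edgeR adjusted p = 0.833).

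**Figure D5:**
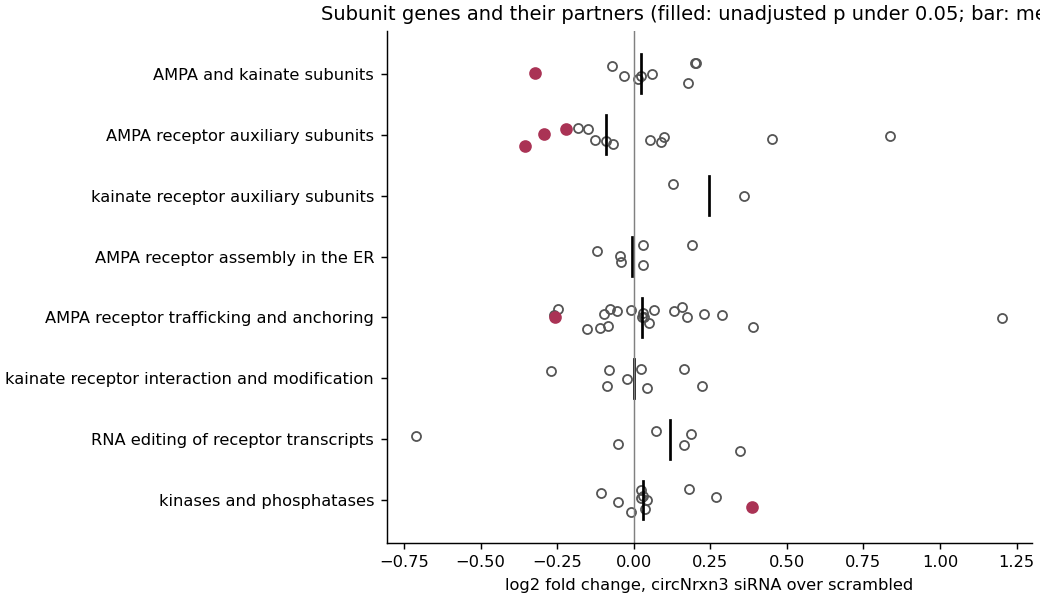
Log2 fold change (x axis, circNrxn3 siRNA over scrambled siRNA) of the 9 subunit genes and of 68 partner gene models in 7 lists, 1 point per model, with the list median as a bar and filled points for an unadjusted p under 0.05. The auxiliary subunits of AMPA receptors hold 3 of the 4 filled partner points on the lower side, and no point passed after adjustment.

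Markers of other cells were set beside these values. Summed excitatory neuron markers (4 genes, 3 above 0) ran from 2217 to 2788 CPM in scrambled and from 1972 to 2461 CPM in circNrxn3 libraries. Oligodendrocyte precursor markers, from cells that also carry AMPA receptors, were 4 of 4 below 0, at 79.2 to 91.3 against 73.1 to 80.2 CPM. Astrocyte markers were 4 of 5 below 0, at 1165 to 1536 against 967 to 1313 CPM. The oligodendrocyte markers were 5 of 5 above 0, at 1687 to 4140 against 2178 to 3628 CPM. Microglia markers were 2 of 4 above 0, at 107 to 170 against 104 to 179 CPM. Striatal markers were 5 of 6 below 0, at 373 to 506 against 307 to 416 CPM, and Ppp1r1b and Penk made up most of that sum. Of these 5, Penk had a log2 fold change of −0.34 (standard error 0.10) and Adora2a −0.30 (0.20). Ppp1r1b had −0.07 (0.16), Drd2 −0.12 (0.43) and Rgs9 −0.01 (0.51). Red blood cell genes were 3 of 3 below 0, at 454 to 1906 CPM in scrambled and 280 to 584 CPM in circNrxn3 libraries. The 1906 CPM was that of scrambled replicate 3, the library highest for Grik5 and Grik3 and lowest for Gria2, Gria3 and Gria4. There Hba1 was at 1440 and Hbb at 457 CPM, against 326 to 630 and 126 to 223 CPM in the other scrambled libraries. Both tested endothelial genes, Flt1 and Slco1c1, were above 0, at 76.0 to 100.1 against 85.3 to 118 CPM, and the model of Cldn5 had 0 counts in all 8 libraries. The part of cell make-up in the subunit differences was not tested.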

How the data were processed

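RNA was sequenced from poly-T selected, strand-marked (dUTP) libraries, per the labels' protocols. The authors deposited whole-number read counts per gene, not normalized, and FPKM values for the same 34298 genes. Per the submitters' processing notes the tools were featureCounts 1.5.0-p3, StringTie 1.3.3b, HISAT2 2.0.5 and fastp, with no roles given, and the build was rn6.

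Counts were fitted with edgeR 4.0.16 (R 4.3.3) over all 8 libraries: filterByExpr (minimum count 10), TMM factors, robust quasi-likelihood F test, no covariate, Benjamini-Hochberg adjustment over 16573 genes, threshold 0.05, 2-sided. Standard errors are the fold change over the square root of F. CPM are TMM-scaled. The script was tested on simulated data.

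The labels call the libraries biological replicates, and counts of each pair within a group differed by more than sampling noise (chi-square over its degrees of freedom 23.2 to 47.4). The sources used here do not say whether counting used strand.

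The 9 genes, the lists and the marker genes were chosen with earlier results of these data known. All 9 genes are named, the 3 genes with the smallest p in each list, and the 2 genes most like each subunit with a mean of at least 10 CPM. Alternatives used limma 3.58.1 and DESeq2 1.42.0.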

Additional observations from a re-analysis of the deposited data

Results flagged for a closer look

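Among 36 sets of 4 libraries examined (the CPM and the family share of each gene in each group), 3 had 1 library far from the other 3, where chance alone gives about 5% of sets. The share of Gria3 in the AMPA family was 41.2% in circNrxn3 replicate 3, against 38.0 to 38.2% in the other circNrxn3 libraries. The share of Grik5 in the kainate family was 88.9% in scrambled replicate 5, against 87.5% in each of the other 3 scrambled libraries. In the circNrxn3 group that share was 84.0% in replicate 1, against 85.7 to 85.8% in the others. No gene was picked out by its CPM.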

How the results depend on the processing

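The 9 genes were called in 0 of 22 alternatives. Over all genes the count was 11 with DESeq2, 3 with the 3 libraries of lowest long-gene balance left out, 0 to 1 with 1 library left out (1 without circNrxn3 replicate 2 and 1 without circNrxn3 replicate 3), and 0 in every other alternative run. Grik5 and Gria3 kept their direction in all 22. Grik5 ran from −0.41 to −0.17, and its unadjusted p was under 0.05 in 15, many of them refits of the same libraries by other methods. Its unadjusted edgeR p was 0.068 and 0.052 without scrambled replicates 3 and 5, and 0.054 and 0.051 without circNrxn3 replicates 1 and 2. It was 0.198 with the long to short ratio and 0.126 with the long-gene balance as a covariate. Over replicates 1, 3 and 4 of both groups, without a block, it was 0.105. With 1 library left out, log2 fold changes ran from −0.017 to 0.13 for Gria1, 0.085 (without scrambled replicate 3) to 0.33 (without scrambled replicate 1) for Gria2, 0.11 (without scrambled replicate 3) to 0.26 for Gria3, 0.097 (without scrambled replicate 3) to 0.29 for Gria4, −0.41 to −0.25 for Grik5, −0.068 to 0.091 for Grik1, −0.0093 to 0.071 for Grik2, −0.29 to 0.40 for Grik3 and −0.14 to 0.094 for Grik4. The sign turned for Gria1 without scrambled replicate 5 (−0.000035) or circNrxn3 replicate 2 (−0.017), and for Grik1 without scrambled replicates 1 (−0.049) or 4 (−0.039) or circNrxn3 replicate 3 (−0.068). It turned for Grik2 without scrambled replicate 4 (−0.0023) or circNrxn3 replicates 1 (−0.0093) or 2 (−0.0024). Without scrambled replicate 3 or circNrxn3 replicates 1 or 2, Grik3 was 0.40, 0.086 and 0.071, and Grik4 0.094, 0.020 and 0.036. With the ratio of summed long to short CPM as a covariate, Gria1 turned to −0.16, Gria2 to −0.017, Gria4 to −0.014, Grik2 to −0.019, Grik3 to 0.46 and Grik4 to 0.16. With the long-gene balance, Gria1 turned to −0.12, Gria2 to −0.044, Gria4 to −0.026, Grik2 to −0.046, Grik3 to 0.61 and Grik4 to 0.20. Without the 3 libraries of lowest balance, Grik1 was −0.0067, Grik3 0.40 and Grik4 0.086. The cause of these turns was not tested.

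Replicate numbers 1, 3 and 4 occur in both groups. The deviations of same-numbered libraries correlated across genes at 0.369, 0.299 and 0.087 for replicates 1, 3 and 4. For replicates 1 and 3 this was the highest value of either library with any library of the other group. Scrambled replicate 4 was closer to circNrxn3 replicate 3 (0.218). The labels do not say whether the numbers pair animals, so the main fit had no block. With a replicate block over these 6 libraries 0 genes passed, 1692 had an unadjusted p under 0.05 (508 without the block), Gria1 was −0.075, Grik3 0.12 and Grik5 −0.27 (edgeR adjusted p = 0.178). Gria2, Gria3 and Gria4 were 0.22, 0.16 and 0.21 with the block (edgeR adjusted p = 0.292, 0.419 and 0.331). Their standard errors were 0.066, 0.058 and 0.066, against 0.19, 0.13 and 0.17 without it. That of Grik5 was 0.058 with the block and 0.15 without. Without the block Gria1 was −0.069. In the main fit Grik3, with 74 to 320 counts per library, had the largest standard error, 0.40.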
